A study of Mus musculus with 14 samples.

Results

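The 41 cell cycle and DNA replication genes described here were chosen by symbol from the 55487 genes of the deposited count table, and all 41 were found there. They cover the G1 and S cyclins (3 genes), origin licensing and the replicative helicase (9), DNA synthesis and nucleotide supply (5), the kinases and cyclins of mitotic entry (6), the spindle, kinetochore and mitotic exit (13), and chromatin and nuclear structure (5). Their mRNA was read in the right liver lobe of 14 TALLYHO mice, mouse by mouse, to ask how much of the liver was in the cell cycle and whether indole and vehicle differed in this.

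TALLYHO is an inbred strain with polygenic type 2 diabetes. The study's methods give male TALLYHO/JnG mice aged 8–12 weeks. In the vehicle group 7 mice (G1, G4, G6, G9, G10, G11 and G13) were gavaged with water, and in the indole group 7 mice (G2, G3, G5, G7, G8, G12 and G14) were gavaged with 20 mg/kg indole, a bacterial product of dietary tryptophan. Both groups were gavaged 2 times per day on 7 consecutive days, had 2 further doses between 2 metabolic tests, and gave 1 library per mouse. Strand-specific polyA libraries gave 15197498 to 21060376 reads counted on genes per mouse, and the hepatocyte transcript *Alb* stood between 47405 and 78247 CPM (reads per 1000000 reads of the TMM-scaled library) in every mouse.

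A cell that divides copies its genome once and then separates the copies. Cyclin D and cyclin E with their kinases carry it through G1, the MCM2–7 ring is loaded at origins and unwinds DNA, PCNA and the nucleotide enzymes serve the polymerases, and cyclin B with CDK1, the Aurora kinases and the anaphase-promoting complex run mitosis. The mitotic mRNAs are made mainly in S, G2 and M phase, which is why genes such as *Mki67* and *Top2a* are read as marks of proliferation. Adult hepatocytes are mostly quiescent, and dividing cells in an undamaged adult liver can be hepatocytes, Kupffer cells, endothelial cells or infiltrating leukocytes. In bulk tissue, fewer cells of a type and less RNA per cell cannot be told apart.

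Cell cycle mRNA was scarce in these livers and no member differed between the groups after adjustment over all genes. The 41 members together took 1878 to 3159 reads per mouse, which was 0.0114% to 0.0164% of the reads. The 21 mitotic members took 86 to 271 reads per mouse, and the 14 members of replication took 1450 to 2018. Over all mice, 20 members had a mean of at least 1 CPM, 19 lay between 0.1 and 1 CPM, and *Bub1* and *Kif11*, which encode a spindle checkpoint kinase and a spindle motor, lay below 0.1 CPM. Enough reads for the test were present for 24 members, and these had reads in every mouse. The other 17 members, namely *Cdc6* and 16 mitotic genes, had 7 to 139 reads each over all 14 mice and at most 18 in a mouse.

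**Figure D1:**
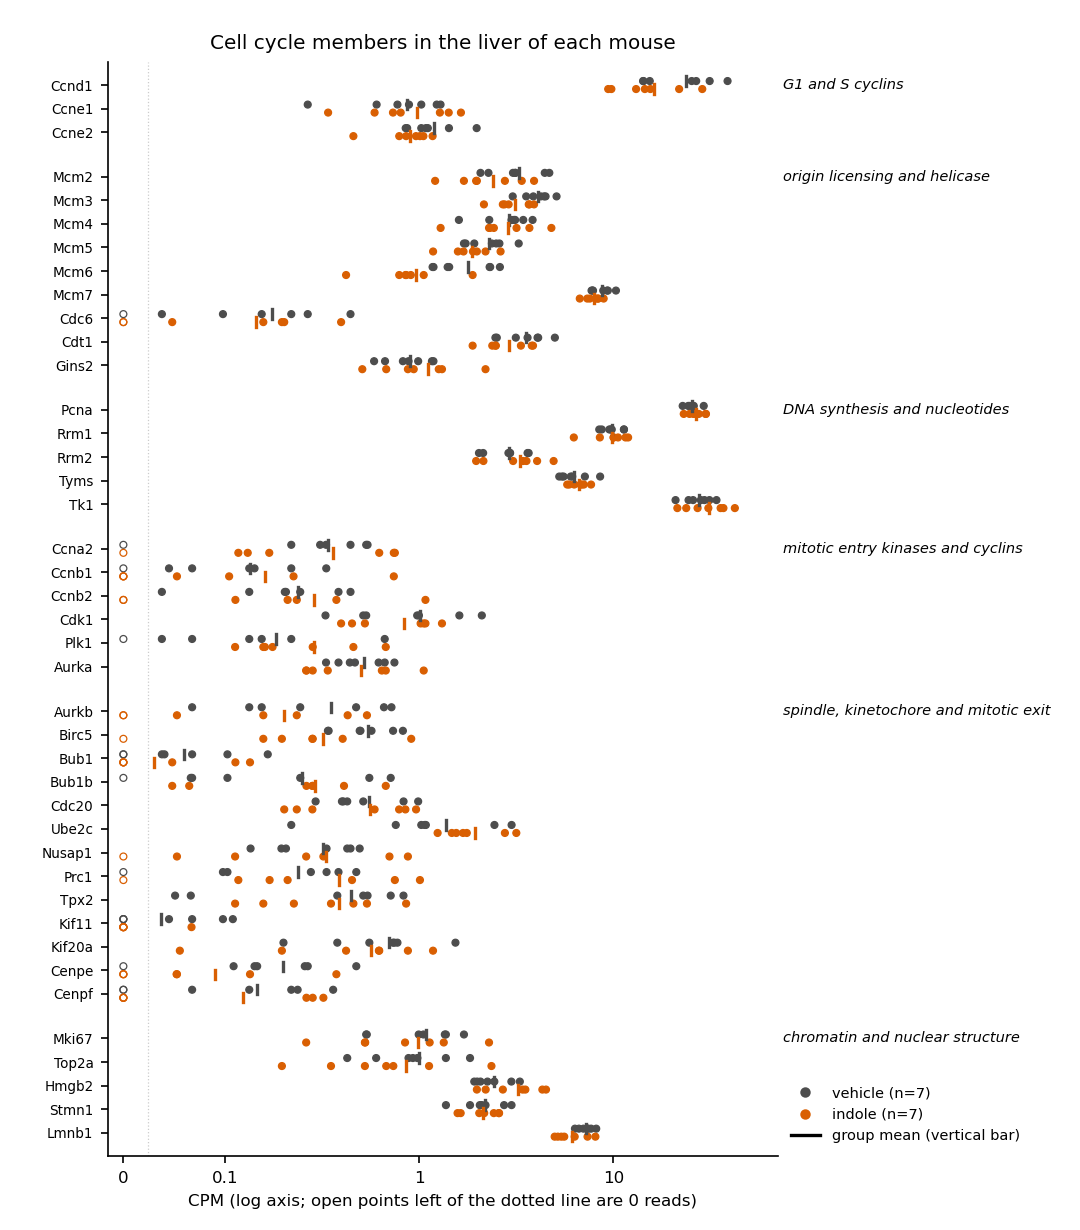
CPM of the 41 members (log axis) in each of 7 vehicle-treated (grey) and 7 indole-treated (orange) mice, by role, with the group mean as a vertical bar (no bar is drawn for *Kif11* in the indole group, whose mean lies below the axis) and 0 reads as open points at the left. *Tk1*, *Pcna* and *Ccnd1* lie above 9 CPM in all 14 mice, while most mitotic members lie below 1 CPM.

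The level per kilobase of the gene length deposited with the counts gave the order of abundance within each role. That length need not be the length of the transcript made in the liver. *Pcna*, the sliding clamp of the polymerases, was the highest of all 41 at 10.9 CPM per kb, followed by *Tk1* (thymidine kinase) at 5.65, *Ccnd1* at 4.22, *Lmnb1* (lamin B1) at 2.25 and *Mcm7* at 1.88. *Ube2c*, the ubiquitin-conjugating enzyme of the anaphase-promoting complex, led the spindle and mitotic exit genes at 0.638 CPM per kb. *Aurka*, a centrosome kinase, led the mitotic entry genes at 0.202 CPM per kb, with *Cdk1* just below it at 0.187. *Mki67* and *Top2a* both stood at 0.103 CPM per kb. The order rests on the division by length. In CPM alone, *Tk1* (29.4) was above *Pcna* (26.1), and *Cdk1* (0.921) was above *Aurka* (0.512).

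The promoters of the replication and mitotic members that were most abundant per length and had an entry are printed. Those of *Mcm3* and *Mcm6*, the members with the smallest *p* values, were added after their values had been seen. RefSeq windows on GRCm38.p6, from 250 bases before to 50 after each start, were found for 31 of the 41 members, and the 250 bases before the start are shown 5′ to 3′ on the gene's strand. Capitals mark 3 motifs on either strand: the cell cycle genes homology region (CHR; TTTGAA or TTCGAA), the CCAAT box (CCAAT), and E2F sites (TTTCCCGC, TTTGGCGC, TTTGCCGC or TTTCGCGC). Neighbouring motifs can share bases in these sequences, as the CCAAT boxes in *Ube2c* and the E2F sites in *Mcm6* do.
Pcna: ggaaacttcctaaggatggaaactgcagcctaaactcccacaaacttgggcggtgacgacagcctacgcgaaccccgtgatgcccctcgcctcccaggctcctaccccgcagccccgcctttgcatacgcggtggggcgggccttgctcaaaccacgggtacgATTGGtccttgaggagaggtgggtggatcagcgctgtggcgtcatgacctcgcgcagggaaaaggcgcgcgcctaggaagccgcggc
Mcm3: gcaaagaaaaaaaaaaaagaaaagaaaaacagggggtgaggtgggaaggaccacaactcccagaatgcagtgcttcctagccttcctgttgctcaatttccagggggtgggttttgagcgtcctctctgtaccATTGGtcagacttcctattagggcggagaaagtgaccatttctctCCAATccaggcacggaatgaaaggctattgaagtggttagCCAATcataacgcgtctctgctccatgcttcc
Mcm6: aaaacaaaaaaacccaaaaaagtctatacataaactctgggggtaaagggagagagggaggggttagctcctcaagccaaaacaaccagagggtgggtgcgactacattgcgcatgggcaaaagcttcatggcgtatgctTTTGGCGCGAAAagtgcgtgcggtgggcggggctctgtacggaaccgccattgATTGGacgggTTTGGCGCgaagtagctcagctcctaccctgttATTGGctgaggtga
Ube2c: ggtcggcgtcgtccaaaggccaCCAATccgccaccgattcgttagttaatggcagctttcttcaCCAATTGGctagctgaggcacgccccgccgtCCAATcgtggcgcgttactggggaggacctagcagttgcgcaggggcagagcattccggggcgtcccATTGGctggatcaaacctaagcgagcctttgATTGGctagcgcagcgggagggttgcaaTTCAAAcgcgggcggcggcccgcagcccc

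*Pcna* is on the minus strand at chr2:132249162-132253314, and its window (chr2:132253181-132253430) held 1 CCAAT box and no CHR or E2F match. *Mcm3* (chr1:20802968-20820312, minus strand, window chr1:20820313-20820562) held 3 CCAAT boxes, and its 2 E2F matches lay in the 50 bases after the start that are not printed. The window of *Mcm6* (gene chr1:128331590-128359664, minus strand, window chr1:128359706-128359955) held 3 E2F matches and 2 CCAAT boxes. *Ube2c* (chr2:164769898-164778822, plus strand, window chr2:164769679-164769928) held 6 CCAAT boxes and 1 CHR match. The start in RefSeq lay 0 to 41 bases from a GENCODE start for *Mcm3*, *Ube2c* and *Mcm6*, and 134 bases from one for *Pcna*.

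The motifs were shared by members of a role. A CHR match was present in 13 of the 17 mitotic members with a window and in 2 of the 12 replication members. Counted by window this was 77.8% and 15.4%, against 19.2% of the 32851 promoter windows in the table. An E2F match was present in 1 mitotic member (*Cdk1*) and in 6 replication members (*Cdc6*, *Cdt1*, *Mcm3*, *Mcm5*, *Mcm6* and *Mcm7*). By window this was 5.6% and 46.2%, against 2.3% of all windows. The CCAAT box was in 15 mitotic and 8 replication members, or 88.9% and 69.2% of their windows, against 37.4% of all windows. A match describes letters only and is not a site shown to be bound.

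In the comparison of indole with vehicle, 2 of the 24 members tested had an unadjusted *p* below 0.05 in edgeR's quasi-likelihood test, *Mcm3* and *Mcm6*, and both were lower with indole. Among all 12653 genes tested, 3.81% had such a *p*, with 2.28% lower and 1.53% higher, and at that rate about 1 gene in 24 would have one. In edgeR no member passed an adjusted *p* of 0.05 (Benjamini–Hochberg over all genes tested), and nor did any other gene (0%), the smallest adjusted *p* being 0.998. DESeq2 gave 3 members an unadjusted *p* below 0.05 and none an adjusted one, and 1 gene outside the members had an adjusted *p* below 0.05 there. Of the 24 members, 8 were higher and 16 lower with indole, with a median log2 fold change of -0.14 against 0.004 over all genes tested. In none of the members were the groups free of overlap, as they were in 6 of all genes tested.

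**Figure D2:**
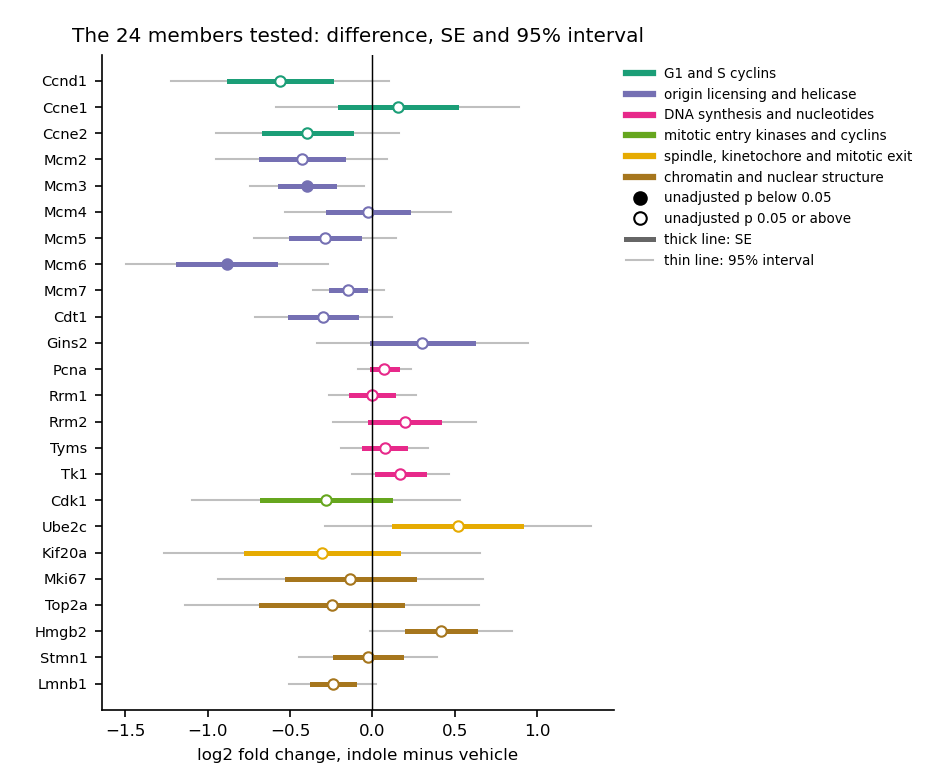
Log2 fold change (indole minus vehicle) of the 24 members tested, with its SE (thick line) and 95% interval (thin line) from edgeR, coloured by role, and filled where the unadjusted *p* was below 0.05. Only *Mcm3* and *Mcm6* have intervals that leave out 0, and the 5 DNA synthesis members lie between -0.001 and 0.20.

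Among the G1 and S cyclins, *Ccnd1* was the most abundant per length, and its variance within the groups, as a ratio to counting error, was the highest of any member. Its product, cyclin D1, activates CDK4 and CDK6 in G1 and is made by hepatocytes that leave quiescence. In vehicle-treated mice it ranged from 14.2 CPM through a median of 25.3 to 38.7 CPM, and in indole-treated mice from 9.40 through 14.5 to 28.7 CPM. The groups overlapped, with 6 of 7 indole-treated mice below the vehicle median and 3 of them below every vehicle-treated mouse. The means were 23.7 ± 9.50 CPM and 16.1 ± 6.92 CPM (SD, n = 7 each), a log2 fold change of -0.56 (SE 0.307, 95% interval -1.23 to 0.10). The unadjusted edgeR *p* was 0.0909 and the exact permutation *p* 0.103.

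The variance of the *Ccnd1* reads within the groups was 60.1 times that of counting error. This was the highest ratio of all 41 members, for which it went from 1.03 (*Kif11*) upwards. The ratio rises with the number of reads. In the coefficient of variation that edgeR fits beyond counting error, *Ccnd1* (0.39) was below *Kif20a* (0.493), the highest member tested. Mouse G13 of the vehicle group was highest, with 817 reads, and G8 was the highest of the indole group, with 426. Without G8 the log2 fold change was -0.76 and its unadjusted edgeR *p* fell below 0.05, and without G13 it was -0.40. *Ccne1* and *Ccne2* encode the E cyclins that activate CDK2 at the start of S phase, and they had 229 and 259 reads in all. *Ccne1* stood at 0.267 to 1.29 CPM in vehicle-treated and 0.340 to 1.64 CPM in indole-treated mice, and *Ccne2* at 0.852 to 1.98 and 0.458 to 1.17 CPM. Their log2 fold changes were 0.15 and -0.39, with unadjusted edgeR *p* values of 0.667 and 0.152 and exact permutation *p* values of 0.724 and 0.118.

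The 6 subunits of the replicative helicase, *Mcm2* to *Mcm7*, all had a lower mean with indole in all 14 mice together, though the difference of *Mcm4* turned sign in 6 of the 14 fits that left out 1 mouse. MCM2–7 is loaded onto DNA in G1 as an inactive double ring and opens the strands once S phase begins. Their summed level was 18.5 to 28.1 CPM in vehicle-treated mice (median 21.6, mean 23.1 ± 3.51, n = 7) and 15.6 to 22.9 CPM in indole-treated mice (median 19.0, mean 19.1 ± 2.59, n = 7), a log2 ratio of -0.27. The 2 highest sums were those of vehicle-treated mice G10 and G11, and the 2 lowest were those of indole-treated mice G2 and G14. The single log2 fold changes went from -0.88 (*Mcm6*) to -0.03 (*Mcm4*) with a median of -0.34, and an unadjusted *p* below 0.05 was reached by 2 of the 6.

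*Mcm6* was counted with 21 to 49 reads (median 26) in a mouse given vehicle and with 8 to 28 (median 16) in one given indole. In CPM this was 1.17, 1.43 and 2.60 (lowest, median and highest) with vehicle and 0.420, 0.856 and 1.88 with indole. The groups met through 1 mouse only: 6 of the 7 mice given indole were below all of those given vehicle, and the seventh, G8, lay above the vehicle median. The means were 1.77 ± 0.610 and 0.966 ± 0.449 CPM (SD, n = 7 each), and the log2 fold change was -0.88 (SE 0.294, 95% interval -1.50 to -0.27, unadjusted edgeR *p* = 0.00687, adjusted *p* = 0.998, exact permutation *p* = 0.0140). Without G8 the log2 fold change was -1.12.

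The reads of *Mcm3* went from 58 to 92 with vehicle (median 69) and from 41 to 69 with indole (median 51), or 3.03, 4.23 and 5.10 CPM against 2.15, 2.89 and 3.90 CPM (lowest, median and highest). Every indole-treated mouse was below the vehicle median, 4 of them were below every vehicle-treated mouse, and the ranges of the groups still overlapped. The means were 4.09 ± 0.674 and 3.11 ± 0.651 CPM (SD, n = 7 each), with a log2 fold change of -0.40 (SE 0.165, 95% interval -0.74 to -0.05, unadjusted edgeR *p* = 0.0258, adjusted *p* = 0.998, exact permutation *p* = 0.0187). Without indole-treated mouse G2 or without vehicle-treated mouse G11 the log2 fold change was -0.32 or -0.34, and its unadjusted edgeR *p* was no longer below 0.05.

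*Mcm7*, the most abundant subunit per length, had 117 to 196 reads in the vehicle group and 119 to 144 in the indole group. It ranged from 7.71 through 8.86 to 10.3 CPM with vehicle and from 6.71 through 8.10 to 8.91 CPM with indole, and 3 vehicle-treated mice lay above every indole-treated mouse. The log2 fold change was -0.15 (SE 0.104, 95% interval -0.36 to 0.07, unadjusted edgeR *p* = 0.173, exact permutation *p* = 0.0979). *Mcm7* overlaps *Cops6*, on the opposite strand, whose mean was 117 CPM against 8.32 CPM for *Mcm7*. The remaining subunits had log2 fold changes of -0.43 (*Mcm2*), -0.29 (*Mcm5*) and -0.03 (*Mcm4*), with unadjusted edgeR *p* values of 0.0986, 0.182 and 0.911.

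The loading and assembly factors differed in level. *Cdt1*, which brings the helicase to origins, had 798 reads and stood at 2.47 to 4.99 CPM with vehicle and 1.88 to 3.85 CPM with indole, a log2 fold change of -0.30 (unadjusted edgeR *p* = 0.150, exact permutation *p* = 0.160). *Cdc6*, its partner in loading, had 39 reads in all and none in 3 mice, and was not tested. *Gins2*, a subunit of the GINS complex that activates the helicase, stood at 0.586 to 1.18 CPM with vehicle and 0.510 to 2.20 CPM with indole and was the one member of this role with a higher mean (log2 fold change 0.30, unadjusted edgeR *p* = 0.337, exact permutation *p* = 0.473). It overlaps *Gse1* on the opposite strand.

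The 5 members of DNA synthesis and nucleotide supply differed little between the groups, and none had an unadjusted *p* below 0.05. *Pcna* had 376 to 566 reads per mouse with vehicle and 404 to 527 with indole, and its levels were 22.7, 25.5 and 29.2 CPM against 23.0, 26.5 and 29.9 CPM (lowest, median and highest). The groups covered nearly the same range. The means were 25.4 ± 1.98 and 26.7 ± 2.57 CPM (SD, n = 7 each), a log2 fold change of 0.07 (SE 0.0773, unadjusted edgeR *p* = 0.357, exact permutation *p* = 0.309). Its 95% interval, -0.09 to 0.23, was the narrowest among the members tested.

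*Tk1*, which salvages thymidine, was the member with the most reads (7241 in all) and stood at 20.9 to 33.9 CPM with vehicle and 21.3 to 42.2 CPM with indole. *Tyms*, which makes thymidylate, stood at 5.26 to 8.54 and 5.78 to 7.67 CPM. *Rrm1* and *Rrm2* encode the large and the small subunit of ribonucleotide reductase. *Rrm1* ranged from 8.45 to 11.3 CPM with vehicle and from 6.25 to 11.9 CPM with indole, and *Rrm2* from 2.03 to 3.66 and from 1.96 to 4.92 CPM. The log2 fold changes of these 4 genes were 0.17, 0.07, -0.001 and 0.20 in the order named, with unadjusted edgeR *p* values from 0.245 to 0.994. *Tk1* overlaps *Afmid* on the opposite strand, which had a mean of 14.2 CPM. With the helicase and loading genes included, the summed replication members stood at 90.7 to 112 CPM with vehicle (median 100.4, mean 99.8 ± 6.45) and 83.5 to 112 CPM with indole (median 102.8, mean 100.8 ± 9.37), a log2 ratio of 0.02. *Pcna* and *Tk1*, with means of 26.1 and 29.4 CPM over all mice, weigh most in this sum. Of the 13 replication members tested, 5 were higher and 8 lower with indole, with a median log2 fold change of -0.03.

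The mitotic members, meaning the 19 genes of mitotic entry, spindle and exit plus *Mki67* and *Top2a*, had nearly the same mean sum in both groups, with a wide spread between mice. Their summed level was 6.80 to 13.6 CPM in vehicle-treated mice (median 9.58, mean 9.73 ± 2.56, n = 7) and 5.63 to 18.2 CPM in indole-treated mice (median 7.78, mean 9.53 ± 4.54, n = 7), a log2 ratio of -0.03. The highest sum, that of G8, was 3.24 times the lowest, that of G5, where the replication members differed by 1.34 times and *Mcm2* to *Mcm7* alone by 1.81 times. These sums are not alike, since the mitotic one rests on 86 to 271 reads per mouse and the replication one on 1450 to 2018. Within the groups the variance of the mitotic reads was 23.3 times that of counting error, and that of the replication reads was 11.6 times.

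**Figure D3:**
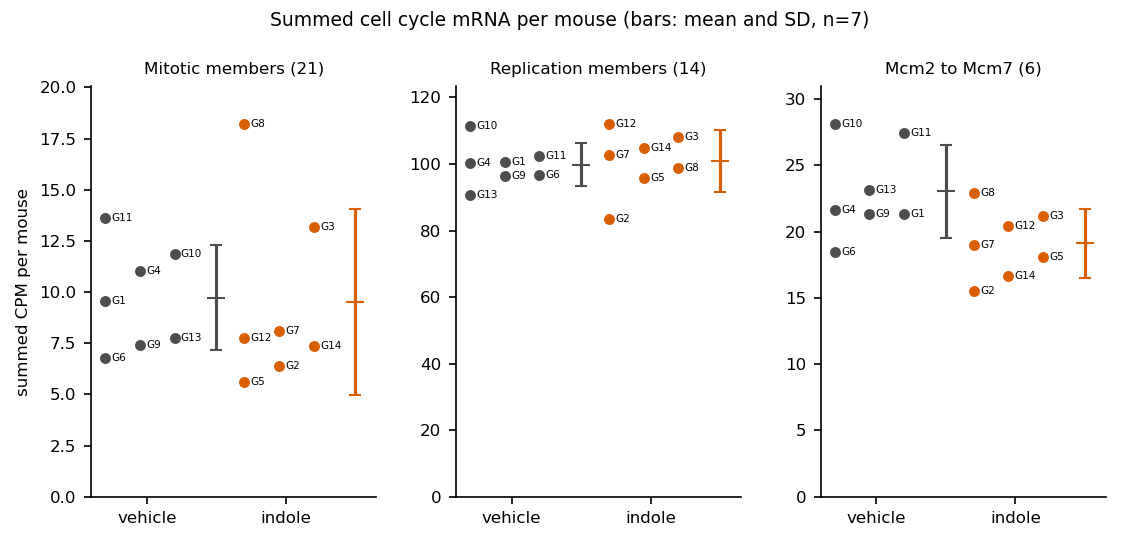
Summed CPM per mouse of the 21 mitotic members, the 14 replication members and the 6 subunits *Mcm2* to *Mcm7*, with each mouse named and the mean and SD of 7 mice per group beside the points. Mouse G8 lies highest for the mitotic sum at 18.2 CPM, and the replication sums of both groups cover 83.5 to 112 CPM.

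*Mki67*, the gene of the Ki-67 antigen, had 254 reads in all. It stood at 0.534, 1.05 and 1.70 CPM with vehicle (lowest, median and highest; 8 to 33 reads per mouse) and at 0.262, 0.846 and 2.29 CPM with indole (4 to 34 reads). The indole group held both the lowest mouse (G5) and the highest (G8). The means were 1.08 ± 0.437 and 0.988 ± 0.684 CPM (SD, n = 7 each), a log2 fold change of -0.13 (SE 0.386, unadjusted edgeR *p* = 0.733, exact permutation *p* = 0.589). The 95% interval of -0.94 to 0.67 leaves room for a difference of close to 1 on the log2 scale in one direction and over 0.5 in the other.

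*Top2a*, the topoisomerase that untangles sister chromatids, had 227 reads in all. It stood at 0.426, 0.928 and 1.83 CPM with vehicle and 0.196, 0.677 and 2.36 CPM with indole. The lowest and the highest mouse were again G5, with 3 reads, and G8, with 35 reads. The log2 fold change was -0.25 (SE 0.428, 95% interval -1.14 to 0.65, unadjusted edgeR *p* = 0.570, exact permutation *p* = 0.446). Without G8 it was -0.71 and that of *Mki67* was -0.47, neither with an unadjusted *p* below 0.05.

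Of the mitotic entry genes only *Cdk1*, the kinase that starts mitosis, had enough reads to be tested. It stood at 0.329, 0.977 and 2.10 CPM with vehicle and 0.396, 1.02 and 1.31 CPM with indole, a log2 fold change of -0.28 (SE 0.390, exact permutation *p* = 0.667). *Aurka*, the most abundant gene of this role per length, had 7 to 12 reads with vehicle (0.331, 0.467 and 0.746 CPM) and 4 to 18 with indole (0.262, 0.338 and 1.06 CPM). The cyclins *Ccna2*, *Ccnb1* and *Ccnb2*, which activate CDK1, had 84, 35 and 63 reads in all, and *Plk1*, a kinase of mitotic entry, had 56. *Ccnb1* had no reads in 4 mice, where the count allows up to 3 reads, or 0.1465 to 0.196 CPM depending on the mouse.

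The spindle and mitotic exit genes included *Ube2c*, the mitotic gene with the most reads (400). It stood at 0.22, 1.07 and 2.99 CPM with vehicle (4 to 54 reads per mouse) and 1.24, 1.68 and 3.16 CPM with indole (19 to 49 reads). All 7 indole-treated mice were above the vehicle median, and 5 of the vehicle-treated mice were below every indole-treated mouse. The means were 1.37 ± 0.98 and 1.95 ± 0.722 CPM (SD, n = 7 each), a log2 fold change of 0.52 (SE 0.384, 95% interval -0.29 to 1.32, unadjusted edgeR *p* = 0.194, exact permutation *p* = 0.141). It was the one mitotic member tested with a higher mean after indole, and without vehicle-treated mouse G11, which had 54 reads, its log2 fold change was 0.84 and its unadjusted edgeR *p* fell below 0.05.

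*Kif20a*, a kinesin of cytokinesis, was tested on 159 reads (log2 fold change -0.31, unadjusted edgeR *p* = 0.515, exact permutation *p* = 0.507), and it overlaps *Cdc23* on the opposite strand. The other genes of this role had too few reads. These were the chromosomal passenger genes *Aurkb* and *Birc5* (70 and 108 reads), the checkpoint genes *Bub1* and *Bub1b* (13 and 66), the anaphase activator *Cdc20* (139), the spindle assembly genes *Nusap1*, *Prc1* and *Tpx2* (79, 74 and 104), the motors *Kif11* and *Cenpe* (7 and 35) and the kinetochore gene *Cenpf* (35). In a fit of all 22535 genes with a read, the 17 members that had too few reads for the main test were split into 8 higher and 9 lower with indole, with unadjusted *p* values from 0.0992 (*Kif11*) to 0.966 (*Nusap1*).

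**Figure D4:**
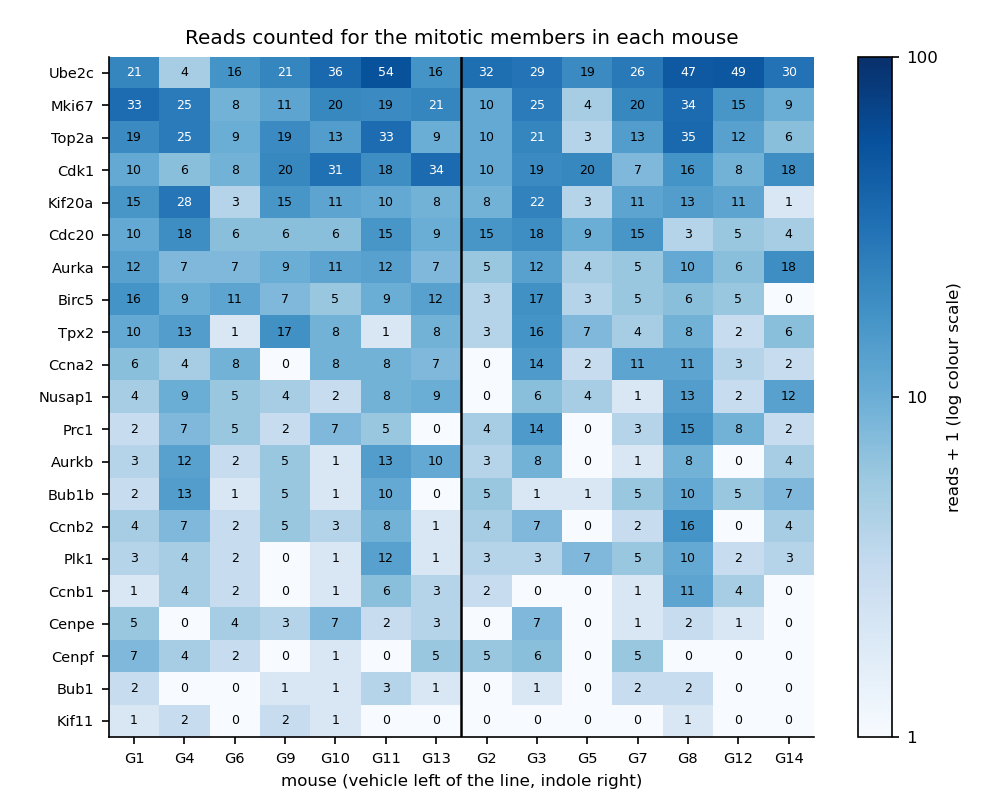
Reads counted for each of the 21 mitotic members (rows, by total reads) in each mouse (columns; 7 vehicle-treated left of the line, 7 indole-treated right), with colour on a log scale of reads + 1. The row of *Ube2c* goes from 4 to 54 reads, zeros are most frequent in the lowest rows, and the column of G8 is dark for *Ccnb1* and *Ccnb2*, at 11 and 16 reads.

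The remaining members of chromatin and nuclear structure had lower and higher means with indole. *Lmnb1*, a protein of the nuclear lamina and the most abundant of this role per length, had 95 to 167 reads with vehicle and 79 to 140 with indole. It stood at 6.34, 7.35 and 8.15 CPM with vehicle and 4.98, 5.58 and 8.07 CPM with indole, and 5 of the 7 indole-treated mice were below every vehicle-treated mouse. The log2 fold change was -0.24 (SE 0.126, 95% interval -0.50 to 0.02, unadjusted edgeR *p* = 0.0708), and the exact permutation *p* was 0.0414. Of all genes tested, 4.19% had an exact permutation *p* below 0.05, as had 3 of the 24 members, and the smallest adjusted value of this test was 0.999.

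*Hmgb2*, a chromatin protein made in dividing and immature cells, stood at 1.92, 2.25 and 3.30 CPM with vehicle and 1.98, 3.41 and 4.50 CPM with indole, and 4 of the mice given indole were above all of those given vehicle. Indole minus vehicle was 0.42 on the log2 scale (SE 0.206, 95% interval -0.01 to 0.85, unadjusted edgeR *p* = 0.0577, exact permutation *p* = 0.0909). *Stmn1*, which destabilises microtubules, stood at 1.37 to 2.99 CPM with vehicle and 1.58 to 2.58 CPM with indole (log2 fold change -0.03, unadjusted edgeR *p* = 0.898, exact permutation *p* = 0.928). Only 1 of the 5 genes of this role, *Hmgb2*, had a higher mean with indole.

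Indole-treated mouse G8 had the highest mitotic sum of all 14 mice, 18.2 CPM from 271 reads, and its replication sum of 98.8 CPM was the ninth highest. The replication genes of G8 did not all rank alike: *Pcna* was highest in G8 at 29.9 CPM, *Mcm2* to *Mcm7* summed to 22.9 CPM there, the highest of the indole group, and *Tk1*, which carries many of the reads of the replication sum, was lowest of that group at 21.3 CPM. G8 was the highest mouse for 8 of the 21 mitotic members (*Ccnb1*, *Ccnb2*, *Plk1*, *Ube2c*, *Nusap1*, *Prc1*, *Mki67* and *Top2a*). Of these, only *Ube2c*, *Mki67* and *Top2a* had enough reads for the test. Among the 24 members tested G8 was the highest for 4, and among all genes tested for 9.18%. Because G8 was picked by its mitotic sum, the count of mitotic members is not separate from that sum. Without G8 the mitotic sum of the indole group was 8.08 ± 2.66 CPM (n = 6) and the log2 ratio was -0.27. G8 had the fewest reads of all libraries, 15197498.

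The same mouse had the highest summed macrophage markers. The 12 Kupffer cell and macrophage markers summed to 548 CPM in G8, to 125–298 CPM in the vehicle group and to 150–249 CPM in the remaining 6 mice given indole, and 10 of the 12 were highest in G8. For the 13 markers of T and NK cells the sum was 12.7 CPM (188 reads) in G8, 1.33–4.39 CPM with vehicle and 1.58–3.16 CPM in the remaining 6 mice given indole. *Gzma*, *Gzmb* and *Cd4* gave most of those reads in G8, while *Cd3e* and *Cd8b1* had none there. The B and plasma cell markers (6.06 CPM) and the neutrophil markers (1.82 CPM) of G8 lay within the ranges of the other mice. Their part in the mitotic sum was not tested.

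Of the 6 erythroid markers tested, 5 had a higher mean with indole and an unadjusted edgeR *p* below 0.05, against 3.81% of all genes, but no marker of any cell type passed an adjusted *p* of 0.05. The sum of the 9 measured was 208 to 389 CPM with vehicle and 269 to 1098 CPM with indole, with no reads for *Epb42* in any mouse. All 5 bile duct markers tested had a lower mean with indole, 1 of them with an unadjusted *p* below 0.05, and sums of 33.4 to 47.3 and 27.5 to 46.3 CPM. The 8 hepatocyte markers summed to 80080 to 102467 CPM with vehicle and 73115 to 107760 CPM with indole. Of these, 4 had a higher and 4 a lower mean with indole, 1 of the higher with an unadjusted *p* below 0.05. The 8 stellate cell markers also split into 4 higher and 4 lower, 1 of the lower with such a *p*, and sums of 276.5 to 338.5 and 189 to 404 CPM. All 3 B and plasma cell markers tested had a higher mean with indole, 1 of them with such a *p*. All 8 sinusoidal endothelial markers tested had a higher mean with indole, 1 of them with an unadjusted *p* below 0.05, and sums of 77.1 to 136 and 93.4 to 174 CPM. Of the 12 Kupffer cell and macrophage markers, 11 had a higher mean with indole and none had such a *p*. Their sum was 548 CPM in G8. In the remaining 6 mice given indole it was 150 to 249 CPM, within the 125 to 298 CPM of the vehicle group. The median was higher with indole only for *Clec4f*, *Csf1r*, *Cd68* and *Lyz2*. The part of these markers in the values of the members was not tested.

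Of 200 further cell cycle genes in 5 lists, 141 could be tested, and 3 of these had an unadjusted edgeR *p* below 0.05, all lower with indole, and none an adjusted one. At the background of 3.81%, about 5 of 141 genes would have such a *p*. Among 50 other replication genes, 20 were higher and 25 lower of 45 tested. The most abundant per length was *Gins4*, a partner of *Gins2* in the GINS complex, at 14.8 ± 1.06 and 14.3 ± 1.68 CPM (SD, n = 7 each). *Rpa2*, which coats single-stranded DNA, stood at 7.12 ± 0.591 and 5.94 ± 0.666 CPM (log2 fold change -0.26, unadjusted edgeR *p* = 0.0297, exact permutation *p* = 0.00583).

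Among 73 other mitotic genes, 12 were higher and 17 lower of 29 tested. *Cks2*, a CDK1-binding protein and the most abundant per length, stood at 16.4 ± 1.49 and 16.9 ± 1.37 CPM (SD, n = 7 each). *Ect2*, an exchange factor of cytokinesis, was 0.813, 1.32 and 1.80 CPM with vehicle and 0.683, 0.749 and 1.24 CPM with indole (log2 fold change -0.59, unadjusted edgeR *p* = 0.0267, exact permutation *p* = 0.0134). It was the 1 gene of the 29 with such a *p*. Neither *Rpa2* nor *Ect2* kept an unadjusted *p* below 0.05 in every fit that left out 1 mouse.

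Among 31 further G1 and S regulators, 13 were higher and 15 lower of 28 tested. *Cdk4*, the kinase partner of cyclin D1 and the most abundant per length, stood at 26.2 ± 1.62 and 27.5 ± 2.02 CPM (SD, n = 7 each), in contrast with the wide range of *Ccnd1*. *E2f3*, a transcription factor of S phase entry, was 5.82, 6.34 and 7.14 CPM with vehicle and 3.34, 4.76 and 6.74 CPM with indole (log2 fold change -0.36, unadjusted edgeR *p* = 0.0213, exact permutation *p* = 0.0146). Among 19 cell cycle inhibitors, 7 were higher and 9 lower of 16 tested, none with an unadjusted *p* below 0.05. *Tob1*, an antiproliferative gene and the most abundant of them per length, stood at 126 ± 24.7 and 113 ± 14.3 CPM. Among 27 hepatocyte growth signals, 8 were higher and 15 lower of 23 tested, again none with such a *p*, and *Igf1*, the most abundant per length, stood at 692 ± 91.5 and 725 ± 77.6 CPM.

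The gene models of 7 members overlap a more abundant gene on the opposite strand (*Ccne2*, *Mcm7*, *Gins2*, *Ccna2*, *Cdc20*, *Prc1* and *Kif20a*). The libraries kept the strand, but the strand setting of the count is not given in the sources used here, and without it reads of the 2 genes cannot be told apart.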

How the data were processed

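Liver mRNA was sequenced from 14 TALLYHO mice, 1 library per mouse, 7 given vehicle and 7 given indole, and the groups and mouse names were taken from the sample labels. The deposited table holds raw counts per gene, not normalised, which the authors made from reads that HISAT2 had placed at a single position of GRCm38 (Ensembl gene models). The counting tool and its strand setting are not given in the sources used here. Unique mapping can lose reads of genes with close copies.

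From the counts, edgeR 4.0.16 in R 4.3.3 (TMM, filterByExpr, robust glmQLFit and glmQLFTest, no covariates) tested the 12653 genes left by the filter, and *p* values were adjusted over all of them (Benjamini–Hochberg). CPM are TMM-scaled. A log2 fold change is given with its SE (from the F statistic) and a 95% interval from the moderated degrees of freedom. Single genes were also compared by a two-sided exact permutation test over 3432 relabellings of the mice on log2(CPM + 0.5). Spread within a group is given as chi-square per degree of freedom over counting error, a ratio of variances that rises with the number of reads. Sums over members carry no test. The totals of 15197498 to 21060376 reads leave genes below 1 CPM with few reads per mouse, and the floor was 3 reads. The methods were tested on simulated data.

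The members, the further lists and the cell type markers were chosen with earlier results of these data known. Values per mouse were given for *Mki67*, *Top2a*, *Ccnd1*, the most abundant member per length of each role, members with an unadjusted *p* below 0.05, and members whose groups did not overlap. For further lists, genes with such a *p* and the most abundant per length were named. *Cdk1*, *Hmgb2* and other members given in a sentence of their own were added after their values were seen. Symbols that the table spells otherwise were matched to the table's name, and *Ahsp* was not used. Alternatives were RLE and upper quartile scaling, DESeq2 1.42.0, limma 3.58.1 voom with quality weights, no filter, a minimum mean count of 10, a non-robust fit, leaving out each mouse, and leaving out G8 and G11 together. Promoter windows came from RefSeq (GRCm38.p6) and starts from GENCODE.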

Additional observations from a re-analysis of the deposited data

Results flagged for a closer look

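Within a group of 7 mice, the gap between the highest or the lowest mouse and the next, as a share of the range, passed the 95% limit of Dixon's test in 7 of 86 comparisons. The nominal rate of the test would give about 4.3, but it holds for independent, normally distributed values. Many of these values rest on few reads and the members share the same mice, so 4.3 does not measure chance here. Of the 86, 82 were of single members and 4 were of the mitotic and the replication sums, none of which passed. In 4 of the 7 the mouse was indole-treated G8. For *Ccnb1* the gap was 0.695 of the range (G8 at 0.740 CPM and 11 reads, the next mouse at 0.226 CPM). For *Ccnb2* it was 0.652 (G8 at 1.08 CPM and 16 reads, next 0.375 CPM), and for *Top2a* 0.570 (G8 at 2.36 CPM and 35 reads, next 1.12 CPM). For *Kif11* it was 1.0, since G8 had 1 read and the other indole-treated mice had 0.

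In the vehicle group the gap was 0.670 for *Plk1* in G11 (0.665 CPM and 12 reads, next 0.22 CPM) and 0.572 for *Kif20a* in G4 (1.54 CPM and 28 reads, next 0.773 CPM). In the indole group it was 0.641 for *Cenpe* in G3 (0.375 CPM and 7 reads, next 0.135 CPM). All 7 are mitotic members, and most rest on few reads.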

How the results depend on the processing

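*Mcm3* and *Mcm6* were the 2 members with an unadjusted *p* below 0.05 under RLE and upper quartile scaling, with no filter and with a mean of 10 counts. DESeq2, voom and the non-robust fit gave 3 each. No member had an adjusted *p* below 0.05 under any of these. Leaving out 1 mouse gave 2 to 5 members with an unadjusted *p* below 0.05, the 5 being without G8 (*Ccnd1*, *Lmnb1*, *Mcm2*, *Mcm3* and *Mcm6*), and leaving out G8 and G11 together gave 4. *Mcm6* was among them in each of these fits, and *Mcm3* in all except those without G2 and without G11, where *Lmnb1* and *Ube2c* took its place. The median log2 fold change went from -0.20 to -0.05, the log2 ratio of the mitotic sums from -0.27 to 0.07 and that of the replication sums from -0.01 to 0.06. Among 27 named genes, 7 with a log2 fold change near 0 or few reads turned sign in some fit. Leaving out 1 mouse gave -0.467 (G8) to 0.0269 (G5) for *Mki67*, -0.196 (G12) to 0.101 (G14) for *Mcm4*, -0.0496 (G12) to 0.0852 (G2) for *Rrm1*, -0.115 (G13) to 0.0687 (G1) for *Stmn1*, -0.0172 (G14) to 0.304 (G7) for *Ccne1* and -0.599 (G3) to 0.008 (G4) for *Kif20a*. *Rrm1* was 0.0043 with RLE, 0.004 with DESeq2 and 0.0005 with a minimum mean count of 10. With voom *Ccne1* was -0.0377 and *Stmn1* 0.0097, and without G8 and G11 *Mcm4* was 0.0621 and *Tyms* -0.0016. Without the filter, 6 further cell cycle genes had an unadjusted *p* below 0.05 in place of 3, with more genes tested, and *Rpa2* was not one of them. *Rpa2* also lost it with voom, without G8 and G11 together and without G1, G5, G6, G8, G10, G12 or G14. *Ect2* lost it without G1, G2, G13 or G14, and *E2f3* without G8 and G11 together. Groups of 7 and few reads limit the mitotic members most: the 95% intervals of *Mki67* and *Top2a* run from -0.94 to 0.67 and from -1.14 to 0.65.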
